A study of Homo sapiens with 10 samples.

Results

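HMOX1 and 7 further genes known as targets of the transcription factor NRF2 were followed through all RNA-Seq libraries of the series: GCLM, GCLC, SLC7A11, TXNRD1, SRXN1, NQO1 and PTGR1. The 8 names are textbook NRF2 targets and were put together when earlier results of these libraries were known. Where the expression table held several transcript rows for a symbol, the row was selected on its mean FPKM (reads per kilobase of transcript, scaled to library depth) over the 10 libraries, so the mean levels are a description. All 8 genes, of 27945 with a symbol in the table, passed the filter on low values, which left 13333 genes for testing.

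NRF2, encoded by NFE2L2, is made continuously and destroyed as fast, because KEAP1 hands it to a CUL3 ubiquitin ligase. Oxidants and electrophiles modify KEAP1, NRF2 escapes, pairs with a small MAF protein (MAFF, MAFG or MAFK) and binds antioxidant response elements near genes that detoxify reactive compounds, make glutathione and thioredoxin substrates, and break down heme. BACH1 occupies the same elements as a repressor, above all at HMOX1, until heme or oxidants remove it. In endothelium, HMOX1 is known as a vasoprotective gene that responds to heme, oxidants and shear stress.

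The cells were EA.hy926, a human line made by fusing umbilical vein endothelial cells with the lung carcinoma line A549; the study deleted the promoter region of 1 of 2 long noncoding RNAs, VEGFA-LNC, antisense to VEGFA, or VEGFC-LNC, upstream of VEGFC, with CRISPR/Cas9. There were 3 VEGFA-LNC deletion clones, 3 VEGFC-LNC deletion clones, and 2 control libraries for each target, from cells that got the guide RNAs of that target without Cas9 protein and then went through the same colony selection. No group received any other agent, all were grown in the same medium, and total RNA was depleted of rRNA. Each deletion library came from a single-cell clone, so clonal differences and the deletion cannot be told apart within a library, and nothing stated whether the 2 controls of a target were separate clones or cultures: p-values then measure only the spread between these libraries, which may be technical.

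NRF2 sites are recognised by their core, TGACNNNGC on either strand, and the promoters that held it are shown because they place the core relative to a member's start. Of the members, 6 had entries in the RefSeq promoter table (GRCh38.p14), 7 promoters in all, and 3 of these 7 held the core within 250 bases before the start. HMOX1 and SLC7A11 had no entry. Among all 35116 promoters of the table, 3830 (10.9%) held it. In the following runs of 29 bases, written 5′ to 3′ along the gene, capitals mark the core and each run matched the hg19 build of the expression table once.
GCLM, at chr1:94375002-94375030, minus strand, core 34 to 26 bases before the RefSeq start and on the opposite strand, inside an annotated GCLM exon: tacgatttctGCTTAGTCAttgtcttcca
TXNRD1, upstream promoter, at chr12:104609448-104609476, plus strand, core 99 to 91 bases before the start, outside annotated exons: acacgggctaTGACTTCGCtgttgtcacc
TXNRD1, downstream promoter, at chr12:104680698-104680726, plus strand, core 102 to 94 bases before the start and on the opposite strand, inside an annotated TXNRD1 exon: gtggatttctGCTTTGTCAttctgactct
The starts are those of the promoter entries. The GCLM run lay inside the span of the measured GCLM transcript row, which started at chr1:94375154. The downstream TXNRD1 run lay inside that of the measured TXNRD1 row, which started at chr12:104609557. A match describes these letters only and is no evidence of binding. The GCLM mRNA differed between the control sets, whereas no difference in TXNRD1 mRNA passed the test in any comparison below.

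Library depth, recovered from the steps of the FPKM values, ranged from 6743972 reads in the third VEGFC-LNC clone to 24197585. Of 12 endothelial marker genes 11 passed the filter, and CLDN5 was listed at 0 throughout. Their summed levels were 417 to 1072 FPKM over the VEGFA-LNC clones and 549 to 822 over the VEGFC-LNC clones. The controls had 578 to 613. Single markers did not all follow the sums. In each deletion comparison 8 of 11 rose and 3 fell, and 1 fall passed the test, in the VEGFC-LNC set. Mean EMCN was 4.95 FPKM in the VEGFA-LNC controls against 0.586 in their clones. In the VEGFC-LNC set it was 6.56 FPKM against 0.109. Of 10 epithelial markers 4 passed the filter, KRT7, KRT8 and KRT18 among them. The epithelial sums were 1077 to 1088 FPKM in the VEGFA-LNC controls and 487 to 1312 in their clones. In the VEGFC-LNC set they were 898 to 912 in the controls and 439 to 867 in the clones. Between the control sets KRT7 had means of 513 FPKM (VEGFA-LNC) and 250.04 FPKM (VEGFC-LNC). KRT8, at 284 and 320 FPKM, and KRT18, at 285 and 334 FPKM, went the other way. Of the 4 tested epithelial markers 2 were higher and 2 lower in the VEGFC-LNC controls, and none passed. CDH1, NKX2-1, SFTPB and SFTPC stayed under 0.1 FPKM in every library. The part of these markers in the results was not tested, and in bulk RNA fewer cells of a type and less RNA per cell cannot be told apart. Between the 2 controls of a target, read counts differed by 3.64 (VEGFA-LNC) and 1.53 (VEGFC-LNC) times counting noise, as chi-square per degree of freedom, against 18.3 to 135 between clones of a target. The first VEGFA-LNC clone stood furthest from its group.

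The 8 genes ranged from a mean of 11.0 FPKM for GCLM to 163 FPKM for TXNRD1. They did not vary alike: over the 10 libraries the highest value was 12.8 times the lowest for HMOX1 and 1.40 times for GCLC. Of all tested genes 1.80% had a larger standard deviation of log2 values than HMOX1, and 91.8% a larger one than GCLC. SLC7A11 (4.75-fold), PTGR1 (3.95-fold), SRXN1 (3.19-fold) and GCLM (2.83-fold) lay between, and TXNRD1 (2.16-fold) and NQO1 (1.96-fold) were nearer to GCLC.

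HMOX1, heme oxygenase 1, opens the heme ring and yields carbon monoxide, iron and the bilirubin precursor biliverdin. Its transcript (chr22:35777060-35790207, plus strand, hg19) was measured at 140 and 146 FPKM in the VEGFA-LNC controls. The 3 VEGFA-LNC clones had 13.8, 49.7 and 33.5 FPKM, all below both controls. HMOX1 fell by 2.33 on the log2 scale (SE 0.43; FDR = 0.031, limma), a 5.02-fold lower level. The VEGFC-LNC controls had 11.4 and 11.9 FPKM, and the VEGFC-LNC clones 65.8, 56.3 and 75.9 FPKM, all above both controls. The fitted difference was of the opposite sign, 2.48 on the log2 scale (SE 0.43), but its FDR of 0.054 missed the threshold in the fit of all 4 groups. The interaction, that is, the VEGFC-LNC difference minus the VEGFA-LNC difference, was 4.81 (SE 0.61; FDR = 0.012, limma). So the ranking of the 4 groups was VEGFA-LNC controls, VEGFC-LNC clones, VEGFA-LNC clones and VEGFC-LNC controls, with no overlap between neighbouring groups.

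The HMOX1 call in the VEGFA-LNC clones rested on few libraries. It was lost without the first or second VEGFA-LNC control (FDR = 0.254 and 0.284), without the third VEGFA-LNC clone (FDR = 0.0697), and without the first or second VEGFC-LNC control (FDR = 0.0709 in each case); without the first VEGFA-LNC clone, which had the lowest value, the difference was -1.81 with an FDR of 0.0027. Fitted on the 2 VEGFA-LNC groups alone its FDR was 0.165, while the VEGFC-LNC difference fitted on its 2 groups alone passed, with an FDR of 0.0065. The VEGFC-LNC difference also passed after median-of-ratios scaling (2.57, FDR = 0.0493), and, at 2.48, without the first (FDR = 8.2e-04) or the second (FDR = 0.031) VEGFA-LNC clone. The interaction lost its call without any 1 of the 4 control libraries (values 4.78 to 4.84, FDR = 0.0794 to 0.0983).

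GCLM and GCLC encode the modifier and the catalytic subunit of glutamate-cysteine ligase, the rate-limiting enzyme of glutathione synthesis. GCLM (chr1:94350756-94375154, minus strand) had 17.6 and 19.2 FPKM in the VEGFA-LNC controls, and 10.3, 10.5 and 9.31 FPKM in the VEGFA-LNC clones. The clones did not overlap the controls, but the log2 difference of -0.87 (SE 0.22) had an FDR of 0.075, and it passed without the first VEGFA-LNC clone (-0.89, FDR = 0.0445) and without the first (FDR = 0.0303) or the third (FDR = 0.0407) VEGFC-LNC clone, which left it at -0.87. In the VEGFC-LNC controls GCLM stood at 7.33 and 7.48 FPKM, and the clones, at 12.4, 8.91 and 6.77 FPKM, lay on both sides of them (log2 difference 0.29, SE 0.22, FDR = 0.482). GCLC (chr6:53362140-53409927, minus strand) kept to 13.8 to 19.3 FPKM in all libraries. Its log2 difference was -0.30 (95% interval -0.62 to 0.02) in the VEGFA-LNC clones and -0.07 (-0.39 to 0.25) in the VEGFC-LNC clones, and neither passed; the second turned to 0.02 after scaling by the median of ratios.

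SLC7A11 encodes the cystine importer xCT, which supplies cysteine for glutathione. Its transcript (chr4:139085248-139163503, minus strand) had the largest standard error of the 8 genes. The VEGFA-LNC controls had 25.1 and 26.0 FPKM against 11.3, 26.3 and 9.48 FPKM in the clones, so the second clone was level with the controls. The VEGFC-LNC controls had 12.4 and 12.7 FPKM and the clones 29.0, 45.1 and 13.4 FPKM, all above both controls but only narrowly in the third clone. The log2 differences of -0.85 (SE 0.52, FDR = 0.412) and 1.05 (SE 0.52, FDR = 0.307) did not pass.

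TXNRD1 and SRXN1 act on thiols: thioredoxin reductase 1 recharges thioredoxin, and sulfiredoxin 1 repairs overoxidised peroxiredoxins. TXNRD1 (chr12:104609557-104744085, plus strand; the highest of 7 transcript rows) had 171 and 169 FPKM in the VEGFA-LNC controls and 194, 182 and 133 FPKM in the clones. In the VEGFC-LNC controls it had 138 and 143 FPKM against 221, 180 and 102 FPKM. In both sets the third clone was the lowest library and the groups overlapped. The log2 differences were -0.02 (95% interval -0.70 to 0.66), which turned to 0.03 after median-of-ratios scaling, and 0.18 (-0.50 to 0.86). In the VEGFA-LNC set SRXN1 (chr20:627268-634014, minus strand) had 65.6 and 68.7 FPKM in the controls against 40.6, 32.4 and 32.1 FPKM. All 3 clones lay below both controls, at a log2 difference of -0.95 (SE 0.28, FDR = 0.117). That difference passed without the third VEGFC-LNC clone, at the same -0.95 (FDR = 0.0276). In the VEGFC-LNC set the controls had 24.5 and 22.1 FPKM and the clones 46.5, 39.2 and 21.5 FPKM, 2 of them higher and the third at the controls' level (log2 difference 0.54, SE 0.28, FDR = 0.328).

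NQO1 and PTGR1 reduce reactive carbonyl compounds: NQO1 acts on quinones, and prostaglandin reductase 1 on unsaturated aldehydes and ketones. NQO1 (chr16:69743304-69760533, minus strand), often used as the readout of NRF2 activity, had 93.6 and 100.4 FPKM in the VEGFA-LNC controls against 69.6, 91.5 and 53.9 FPKM in the clones. In the VEGFC-LNC set it had 83.4 and 83.0 FPKM against 73.9, 77.0 and 51.1 FPKM. The clones lay below their controls in both sets, by -0.47 (SE 0.24, FDR = 0.319) and -0.33 (SE 0.24, FDR = 0.465) on the log2 scale, and neither passed. NQO1 therefore did not share the sign of HMOX1 in the VEGFC-LNC clones.

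PTGR1 (chr9:114325247-114361711, minus strand) passed the test in all 4 comparisons. The VEGFA-LNC controls had 43.9 and 37.4 FPKM and the clones 13.7, 12.1 and 13.9 FPKM. It fell by 1.61 on the log2 scale (SE 0.12; FDR = 0.0016, limma), a 3.06-fold lower level that ranked 2 by p among all tested genes. The VEGFC-LNC controls had 11.7 and 11.1 FPKM and the clones 21.5, 19.7 and 20.9 FPKM. Here PTGR1 rose by 0.85 (SE 0.12; FDR = 0.027, limma), 1.81-fold. The clones of each set lay within a narrow range, and the interaction of 2.47 (SE 0.18; FDR = 0.0023, limma) had the smallest p of all 13333 genes. The rise was less stable than the fall: it was lost without either VEGFA-LNC control (FDR = 0.0817 each), the third VEGFA-LNC clone (FDR = 0.0502), the first or second VEGFC-LNC control (FDR = 0.364 and 0.335), or the first, the second or the third VEGFC-LNC clone (FDR = 0.0523, 0.0776 and 0.0541), with values of 0.82 to 0.89.

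As a group, 8 of 8 genes were lower in the VEGFA-LNC clones (median log2 difference -0.86; all tested genes -0.06), TXNRD1 with the reservation on scaling given above, and 2 of 8 passed the test, HMOX1 and PTGR1. Over all tested genes 2.02% passed in that direction. The members were put together with earlier results of these libraries known. The shares over all genes, here and below, therefore describe the members and do not test them as a group. For 6 of 8 genes every VEGFA-LNC clone lay below both controls, as did 23.7% of all genes. In the VEGFC-LNC clones 6 of 8 were higher (median 0.42; all genes -0.09), and 1, PTGR1, passed, against 0.15% of all genes in that direction. Every VEGFC-LNC clone exceeded both controls for 3 of 8 genes, HMOX1, SLC7A11 and PTGR1, against 17.2% of all genes. For 1 of 8, NQO1, every VEGFC-LNC clone lay below both controls, and the share of all genes in that direction was not counted. In the interaction 2 of 8 genes passed as higher (median 1.32; all genes -0.04), against 0.863% of all genes.

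The clones of a set did not carry the group equally. Taken clone by clone, the median log2 difference of the 8 genes from their own controls was -0.77, -0.49 and -1.02 in the VEGFA-LNC clones and 0.82, 0.55 and -0.12 in the VEGFC-LNC clones. In the third VEGFC-LNC clone, the library with the fewest reads, 5 of 8 genes were below the control mean while HMOX1 had the highest value of its group. Without that clone the log2 differences of the VEGFC-LNC set were 2.37 for HMOX1 (FDR = 0.0986), 0.87 for SRXN1 (FDR = 0.0736) and 1.52 for SLC7A11 (FDR = 0.169), and no member passed; the interactions of GCLM (1.36, FDR = 0.044) and SRXN1 (1.82, FDR = 0.0208) did.

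The 2 control sets, which carry no deletion, differed in these genes by a larger median than the clones did from their controls. All 8 genes were lower in the VEGFC-LNC controls than in the VEGFA-LNC controls (median log2 difference -1.16; all genes -0.11), and 4 of 8 passed: HMOX1, PTGR1, SRXN1 and GCLM. Over all tested genes 9.76% passed as lower and 2.92% as higher. HMOX1 was 12.2-fold lower (log2 difference -3.60, SE 0.47; FDR = 0.0053, limma). PTGR1 was 3.54-fold lower (-1.82, SE 0.14; FDR = 0.0014), SRXN1 2.87-fold (-1.52, SE 0.31; FDR = 0.019) and GCLM 2.46-fold (-1.30, SE 0.24; FDR = 0.014). NQO1 (-0.22, FDR = 0.603), GCLC (-0.27, FDR = 0.266), TXNRD1 (-0.27, FDR = 0.605) and SLC7A11 (-1.02, FDR = 0.258) did not pass. Leaving out any 1 of the 4 control libraries left PTGR1 as the only member called, with an FDR of 0.0528 to 0.0752 for HMOX1, 0.096 to 0.130 for GCLM and 0.114 to 0.145 for SRXN1; with the 2 libraries of each control set averaged to 1, no member passed. Median-of-ratios scaling raised the median of all genes by about 0.1 in this comparison (from -0.11 to -0.00) and changed the split of calls from 389 higher and 1301 lower to 587 and 906, with the 4 calls unchanged. The 4 control libraries were in 2 sets by target, so set and guide RNAs cannot be told apart.

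These comparisons share their controls, and the interaction is the sum of a difference between the control sets and a difference between the clones. Of the HMOX1 interaction of 4.81, 3.60 lay between the control sets and 1.20 between the VEGFC-LNC and the VEGFA-LNC clones, the clones being a comparison that was not tested here. For PTGR1 the parts were 1.82 and 0.64, and for SLC7A11 1.02 and 0.87. For SRXN1 and GCLM the parts from the control sets, 1.52 and 1.30, were as large as the whole interactions of 1.49 and 1.15, and their clones differed by -0.04 and -0.14. The SRXN1 and GCLM means thus lay closer together between the clone groups than between the control sets, and no deletion difference of either gene passed. The means of both clone groups lay between the 2 control means for 5 of 8 genes (HMOX1, GCLM, TXNRD1, SRXN1 and PTGR1), and for 25.5% of all tested genes. Set against all 4 controls as 1 group, HMOX1 was at -0.53 (FDR = 0.831) in the VEGFA-LNC clones and 0.67 (FDR = 0.732) in the VEGFC-LNC clones, PTGR1 at -0.70 (FDR = 0.524) and -0.06 (FDR = 0.956), and no member passed.

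Ratios within a library do not depend on its depth or scaling. HMOX2, the constitutive heme oxygenase, is not known as an NRF2 target and had 16.4 to 33.8 FPKM, with no call in any comparison. HMOX1 stood at 4.46 and 4.36 times HMOX2 in the VEGFA-LNC controls and at 0.408, 1.67 and 1.55 times in the clones. In the VEGFC-LNC controls it stood at 0.478 and 0.523 times, and in the clones at 3.73, 3.43 and 3.65 times. HMOX1 was thus the more abundant heme oxygenase transcript per kilobase in 7 libraries and HMOX2 in 3, the first VEGFA-LNC clone and both VEGFC-LNC controls. The GCLM to GCLC ratio was 0.921 and 0.995 in the VEGFA-LNC controls, 0.661, 0.614 and 0.664 in the clones, 0.456 and 0.478 in the VEGFC-LNC controls and 0.710, 0.622 and 0.492 in the clones. The VEGFC-LNC controls had the lowest ratios. Controls and clones did not overlap in either set, but in the VEGFC-LNC set only narrowly, by 0.478 against 0.492. The latter came from the third clone, with 230 reads for GCLM and 352 for GCLC. How often other pairs of genes were separated in this way was not counted.

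Stretches of chromosomes differed in expression between the groups, so each member was set beside the 50 tested genes nearest to it. None of the neighbours of HMOX1 had as large a difference in the same direction in any comparison, and their medians were -0.04 in the VEGFA-LNC clones, 0.00 in the VEGFC-LNC clones and -0.32 between the control sets. For PTGR1 the neighbours' medians were -0.14, 0.03 and -0.44, with 1, 2 and 1 of 50 genes at or beyond PTGR1. NQO1 lay in a stretch of chromosome 16 that was lower in the VEGFC-LNC clones, with a median of -0.48, so its own -0.33 was less low than 34 of 50 neighbours. SLC7A11 lay in a stretch of chromosome 4 whose median there was -0.49, against 1.05 for SLC7A11 itself, a value that none of 50 neighbours reached.

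Of 15 regulators of the pathway 14 were tested. None passed in either deletion comparison (medians -0.16 and 0.13). Of all 13333 tested genes 367 passed in the VEGFA-LNC clones (98 higher, 269 lower) and 63 in the VEGFC-LNC clones (20 higher, 43 lower). NFE2L2, which encodes NRF2 itself, had 37.1 and 37.6 FPKM in the VEGFA-LNC controls against 25.9, 35.3 and 29.1 FPKM in the clones, and 28.1 and 25.3 FPKM in the VEGFC-LNC controls against 26.1, 28.2 and 30.9 FPKM (log2 differences -0.32 and 0.09, FDR = 0.279 and 0.770). KEAP1 had differences of -0.38 (FDR = 0.147) and 0.14 (FDR = 0.535), CUL3 of 0.37 (FDR = 0.155) and -0.21 (FDR = 0.378), and BACH1 of 0.00 (FDR = 0.996) and -0.04 (FDR = 0.848). The protein or nuclear level of these factors was not measured. Between the control sets, where 9.76% of all genes passed as lower, 6 of 14 regulators passed, all lower in the VEGFC-LNC controls: the small MAF genes MAFF (-1.91, FDR = 0.046), MAFK (-1.85, FDR = 0.019) and MAFG (-0.86, FDR = 0.039), SQSTM1, whose product p62 binds KEAP1 (-1.19, FDR = 0.015), DPP3 (-0.68, FDR = 0.045) and the NRF2 relative NFE2L1 (-0.62, FDR = 0.042). MAFF spread widely within the clones, from 15.0 to 49.3 FPKM in the VEGFA-LNC set and from 17.5 to 42.4 in the VEGFC-LNC set. RBX1, the ring protein of the CUL3 ligase, had 0.29 (FDR = 0.350) and -0.29 (FDR = 0.339) in the deletion comparisons.

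Of 38 other NRF2 targets 34 were tested, and in the VEGFA-LNC clones 28 were lower (26 under median-of-ratios scaling), with a median of -0.38. Of all 13333 tested genes 7440 were lower there and 2.02% passed as lower. ME1, the malic enzyme that makes NADPH, fell by 1.45 (SE 0.15; FDR = 0.0047, limma) from 37.2 and 39.9 FPKM to 13.7, 15.1 and 13.5 FPKM. EPHX1, an epoxide hydrolase, fell by 0.75 (FDR = 0.037), and no other gene of the list passed. The lowest difference was that of the aldo-keto reductase AKR1B10 (-2.06, FDR = 0.116) and the highest that of the efflux pump ABCC2 (0.55, FDR = 0.140). OSGIN1, a growth inhibitor induced by oxidants, had 28.2 and 28.9 FPKM in the controls and 6.82 to 7.97 FPKM in the clones, but an FDR of 0.064. In the VEGFC-LNC clones no gene of the list passed and 16 were higher and 18 lower (19 and 15 under median-of-ratios scaling), with ABCC2 lowest (-0.997, FDR = 0.057) and AKR1C3 highest (1.03, FDR = 0.108). The list as a whole thus took no one direction in those clones that held under both scalings. Between the control sets 9 of 34 passed as lower in the VEGFC-LNC controls, against 9.76% of all genes, and none as higher: AKR1B10 (-4.28, FDR = 0.0088), OSGIN1 (-2.73, FDR = 0.014), AKR1B1 (-2.30, FDR = 0.023), ME1 (-1.50, FDR = 0.0036), SLC48A1 (-1.13, FDR = 0.0071), EPHX1 (-1.07, FDR = 0.0074), RIT1 (-1.05, FDR = 0.037), AKR1C3 (-1.02, FDR = 0.044) and TALDO1 (-0.61, FDR = 0.025). In the interaction ME1 passed as higher (1.51, FDR = 0.018) and ABCC2 as lower (-1.54, FDR = 0.026), against 0.863% and 0.593% of all genes. AKR1B10, AKR1C3 and GGT1 have close relatives in the genome whose reads can be shared, so their values are uncertain.

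Of the genes of glutathione and cystine handling 19 were tested, and of those of thioredoxin and peroxide clearing 15. None passed in either deletion comparison, where 2.02% (VEGFA-LNC, lower) and 0.15% (VEGFC-LNC, higher) of all genes did. SLC3A2, the partner chain of xCT, had 161 and 171 FPKM in the VEGFA-LNC controls and 63.9 to 78.2 FPKM in the clones (-1.19, FDR = 0.076), and 44.5 and 44.7 FPKM in the VEGFC-LNC controls against 37.6 to 83.5 FPKM. The extremes of both lists in the VEGFA-LNC clones were CHAC1, which breaks down glutathione (-1.61, FDR = 0.117), MGST2 (1.22, FDR = 0.343), TXNRD2 (-0.53, FDR = 0.430) and the mitochondrial superoxide dismutase SOD2 (2.04, FDR = 0.199). In the VEGFC-LNC clones they were CHAC2 (-1.20, FDR = 0.3002), CHAC1 (1.94, FDR = 0.112), PRDX3 (-0.42, FDR = 0.389) and the thioredoxin inhibitor TXNIP (1.84, FDR = 0.575). TXNIP and SOD2 divided the VEGFA-LNC clones: TXNIP had 6.07, 154 and 124 FPKM and SOD2 18.3, 148 and 149 FPKM, with the first clone low in both. Between the control sets SLC3A2 (-1.89, FDR = 0.012), CHAC1 (-2.91, FDR = 0.014), GGT1 (-1.41, FDR = 0.012), GPX1 (-1.52, FDR = 0.020), GLRX (-1.12, FDR = 0.0054), GLRX2 (-0.69, FDR = 0.031) and TXNRD3 (-0.78, FDR = 0.039) were lower in the VEGFC-LNC controls and MSRA (0.60, FDR = 0.037) higher. In that comparison 9.76% of all genes passed as lower and 2.92% as higher. CHAC1 (3.55, FDR = 0.046) and the peroxidase GPX8 (1.43, FDR = 0.038) passed in the interaction, where 0.863% of all genes passed as higher.

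Among 21 genes of heme and iron handling, all tested, none passed in either deletion comparison, where 2.02% (VEGFA-LNC, lower) and 0.15% (VEGFC-LNC, higher) of all genes did, with medians of -0.00 (0.05 under median-of-ratios scaling) and -0.11. The lowest and highest in the VEGFA-LNC clones were the transferrin receptor TFRC (-0.67, FDR = 0.403) and the iron exporter SLC40A1 (0.75, FDR = 0.268), the latter under 1 FPKM in the group means. In the VEGFC-LNC clones they were the heme exporter FLVCR1 (-0.49, FDR = 0.532) and the porphyrin transporter ABCB6 (0.57, FDR = 0.376). NCOA4, the ferritin cargo receptor, was lower in the VEGFC-LNC controls than in the VEGFA-LNC controls (-0.69, FDR = 0.017), where 9.76% of all genes passed as lower. The heme transporter SLC48A1, listed among the other NRF2 targets, was lower in the same comparison.

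HMOX1, SLC7A11, SLC3A2 and CHAC1 also respond to ATF4, the transcription factor of the amino acid and endoplasmic reticulum stress response, and a list of 29 ATF4 targets, 24 of them tested, was set beside the members. In the VEGFA-LNC clones 23 of 24 were lower (22 under median-of-ratios scaling, median -0.55), and ATF3 and DDIT3 passed. Of all 13333 tested genes 7440 were lower there and 2.02% passed as lower. ATF3 had 85.1 and 87.5 FPKM in the controls and 10.2, 16.5 and 21.0 FPKM in the clones (-2.49, FDR = 0.0079). DDIT3, which encodes the stress factor CHOP, had 109.99 and 103.6 FPKM against 15.5, 20.02 and 31.4 FPKM (-2.31, FDR = 0.0077). In the VEGFC-LNC clones 20 were higher (median 0.50) and none passed. Of all 13333 tested genes 5463 were higher there and 0.15% passed as higher. INHBE was highest (2.86, FDR = 0.058, at most 1.78 FPKM) and SLC7A5, a neutral amino acid transporter, lowest (-0.16, FDR = 0.902). Between the control sets 7 of 24 passed, all lower in the VEGFC-LNC controls, against 9.76% of all genes: ATF3 (-4.25, FDR = 0.0014), DDIT3 (-3.41, FDR = 0.0020), CEBPB (-2.28, FDR = 0.0097) and SESN2 (-1.97, FDR = 0.012), the seryl-tRNA synthetase SARS (-0.72, FDR = 0.016), and CHAC1 and SLC3A2 with the values above. In the interaction all 24 were higher (median 1.04), and ATF3 (3.37, FDR = 0.012), DDIT3 (2.64, FDR = 0.020) and CHAC1 passed. Of all 13333 tested genes 6259 were higher and 0.863% passed as higher. The differences of ATF3 and DDIT3 between the control sets were larger than their interactions. Their means were lower in the VEGFC-LNC than in the VEGFA-LNC clones, at 8.43 against 15.9 FPKM and 12.7 against 22.3 FPKM. CHAC1 was higher, at 4.39 against 2.45 FPKM. The clone groups were not tested against each other. DDIT4, an inhibitor of mTOR signalling, had 0.23 (FDR = 0.860) and 1.67 (FDR = 0.195) in the deletion comparisons.

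The calls of these lists leaned on the control libraries as well. Of 29 calls between the control sets, 26 were lost without each of the 4 control libraries in turn, ATF3 and DDIT3 held throughout, and ME1 was lost without the second VEGFA-LNC control or the first VEGFC-LNC control (highest FDR 0.0664). All 6 calls in the interaction were lost without each control library. In the VEGFA-LNC clones ATF3, DDIT3 and ME1 were lost without either VEGFA-LNC control (highest FDR 0.137, 0.135 and 0.112), and EPHX1 also without 5 further libraries, the second and the third VEGFA-LNC clone, both VEGFC-LNC controls and the third VEGFC-LNC clone (highest FDR 0.335).

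The genes whose pattern over the 10 libraries was nearest to that of HMOX1, by the root-mean-square difference of centred log2 values, were RCAN1 (0.578), SIRPB2 (0.597), NMRAL2P (0.619) and RFPL4AL1 (0.623), against a median of 1.34 over all tested genes. RCAN1, an inhibitor of the phosphatase calcineurin, had 39.8 and 38.1 FPKM in the VEGFA-LNC controls, 10.4, 9.14 and 10.8 FPKM in the clones, 5.75 and 5.97 FPKM in the VEGFC-LNC controls and 21.5, 13.5 and 20.4 FPKM in the clones. That is the same ranking of groups as for HMOX1. SIRPB2 had group means of 18.2, 8.24, 4.53 and 11.5 FPKM in the same order, NMRAL2P 5.63, 1.40, 1.40 and 3.30 FPKM, and RFPL4AL1, a member of a family of near-identical copies, 9.42, 2.92, 0.972 and 3.03 FPKM. Among the members PTGR1 was nearest to HMOX1, at 0.795, and GCLM and SRXN1 were nearest to each other, at 0.165. Among the genes nearest to NQO1 were CRTAC1 (0.155), NXT1 (0.172) and PGGT1B (0.177), with a median of 0.442 over all genes. The member nearest to NQO1 was GCLC, at 0.195. The former were picked from all 13333 tested genes and GCLC from the other members only, so these distances cannot be ranked on equal terms. CRTAC1 was at 0.191 to 0.591 FPKM, NXT1 at 9.73 to 18.97 and PGGT1B at 4.20 to 6.63 FPKM over the libraries. The CRTAC1 values rested on 3 to 29 reads, so its distance is uncertain.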

How the data were processed

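RNA of 10 EA.hy926 libraries was sequenced as single-end reads. The authors trimmed reads with Trim Galore 0.4.4, aligned them to hg19 with STAR 2.5.4b and counted them with featureCounts. The deposited table holds FPKM values of RefSeq transcripts under a name that says RPKM; how the authors made it from the reads is not given in the sources used here. Of its 65530 rows, 42 without a gene name were left out, and the row with the highest mean FPKM stood for each symbol. Low values were whole multiples of 1 read (100% within 0.1 reads), which gave depths of 6743972 to 24197585 reads; the third VEGFC-LNC clone had the fewest, so its low values are the least precise.

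Genes with at least 1 CPM, from these reads, in at least 2 libraries were kept. The values log2(FPKM + 0.1) were fitted in 4 groups by limma 3.58.1 (R 4.3.3; moderated with a mean trend), since the deposited unit is FPKM, with Benjamini-Hochberg adjustment over 13333 genes. A gene passed at an FDR under 0.05 and at least a 1.5-fold change. Fold changes are on the log2(FPKM + 0.1) scale and understate changes of low genes. The scripts were tested on simulated data. Members and lists were chosen with earlier results of these data known. Named were the members, HMOX2, 7 regulators, every list gene that passed in any comparison or was lowest or highest in a deletion comparison, and the 4 genes nearest to HMOX1 and to NQO1, of which 1 is not reported here; MAFF, SLC3A2, OSGIN1 and SOD2 received extra values after these were seen. Alternatives were another pseudocount (1 or 0.01), no filter, median-of-ratios scaling, fitting only the groups compared, averaged or pooled controls, a replicate block, the longest transcript row and leaving out each library. No count model was fitted to the recovered reads. Promoters came from RefSeq (GRCh38.p14) and exons from Gencode on GRCh37.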

Additional observations from a re-analysis of the deposited data

Results flagged for a closer look

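For HMOX1 the difference of the VEGFC-LNC clones from their controls exceeded that of the VEGFA-LNC clones by 4.81 on the log2 scale (interaction contrast in limma, FDR = 0.012). All 3 VEGFC-LNC clones lay above both of their controls, as for 17.2% of all genes. All 3 VEGFA-LNC clones lay below both of theirs, as for 23.7% of all genes. The VEGFC-LNC difference by itself missed the threshold (FDR = 0.054, limma). As described above, the interaction call depended on every control library. Between the control sets HMOX1 differed by 3.60, and between the clones by 1.20. For PTGR1 the same contrast was 2.47 (FDR = 0.0023), with the clones again on opposite sides of their controls in 3 of 3 and 3 of 3. The control sets accounted for 1.82 of it and the clones for 0.64. Which of the control sets is nearer to cells that got no guide RNAs was not tested.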

How the results depend on the processing

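Each library was left out in turn, and the control libraries decided most counts. Genes called ranged from 6 to 1732 in the VEGFA-LNC clones, 5 to 1158 in the VEGFC-LNC clones, 33 to 3068 between the control sets and 5 to 694 in the interaction, each highest without the first VEGFA-LNC clone. Members called ranged from 1 to 4, 0 to 2, 1 to 4 and 1 to 4, and member medians from -0.90 to -0.69, 0.19 to 0.68, -1.20 to -1.11 and 1.10 to 1.59. TXNRD1 ranged from -0.13 to 0.14 in the VEGFA-LNC clones and from -0.051 to 0.50 in the VEGFC-LNC clones, and in the interaction TXNRD1 ranged from -0.029 to 0.53 and NQO1 from -0.047 to 0.34. With each control pair averaged to 1 library, assumed to vary like the other groups, limma called 0, 1, 0 and 0 genes (834, 592, 1224 and 689 at an unadjusted p under 0.05) and 0 members in every comparison. With only the groups compared, 20, 26 and 4401 genes were called in the first 3 comparisons, with 1 member in the VEGFA-LNC clones. Without the filter 654 genes were called in the VEGFA-LNC clones and 329 in the interaction. Against all 4 controls, 29 genes and 0 members were called in the VEGFA-LNC clones (member median -0.28) and 0 members in the VEGFC-LNC clones (member median -0.13), and the sign turned for TXNRD1 (0.11) in the former and for GCLM (-0.36), SRXN1 (-0.22) and PTGR1 (-0.057) in the latter. Median-of-ratios scaling called 2 members in the VEGFC-LNC clones, gave a member median of -1.05 between the control sets (a pseudocount of 1 gave -1.09), turned TXNRD1 to 0.030 in the VEGFA-LNC and GCLC to 0.017 in the VEGFC-LNC clones, and changed the calls from 20 higher and 43 lower to 38 and 44 in the VEGFC-LNC clones. With the replicate block, 151, 20 and 86 genes were called in the VEGFA-LNC clones, the VEGFC-LNC clones and the interaction, with 1 member (median -0.60; TXNRD1 0.22; HMOX1 FDR = 0.0549) and 0 members in the clones; same-numbered libraries correlated at -0.043 to 0.047, so the numbers are only names. The causes of these changes were not tested. Over all alternatives 518 member values stayed on their side of the threshold with their direction, 44 lost a call, 11 gained one and 11 turned sign. Only 2, 1, 4 and 2 of the 8 members were called in the main fit of the 4 comparisons, and the others had no call to lose. HMOX1 lost its call in the VEGFA-LNC clones in 9 of 19 alternatives. PTGR1 lost its call in 2 of 19 in the VEGFA-LNC and in 11 of 19 in the VEGFC-LNC clones, where 1 more turned its sign. Depth limits the third VEGFC-LNC clone most.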
